A study of Mus musculus with 6 samples.

Results

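The genes described here encode the membrane fusion machinery of regulated secretion: the SNARE proteins, the Munc18 and other syntaxin-binding proteins, the synaptotagmins, the priming factor Munc13-4 (Unc13d) and the SNARE recycling factor α-SNAP (Napa). They were taken from the annotated array by symbol alone, as Stx, Stxbp, Vamp or Syt followed by a number and an optional letter, together with Snap23, Snap25, Snap29, Snap47, Unc13d and Napa. This gave 49 of the 19938 genes measured, on 50 probe sets. There were 14 syntaxins, 6 VAMPs, 4 members of the SNAP-25 family, 6 Munc18 and Stxbp genes, 17 synaptotagmins, Unc13d and Napa. Vamp2 shares its annotated probe set with Ubr3 and was left out. A probe set annotated to both Stxbp3 and Stxbp3-ps was left out too, and Stxbp3 was kept on another that carries its symbol alone.

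The cells were bone marrow derived mast cells (BMMC) of C57BL/6J mice, either wild type (WT) or knocked out for the microRNA miR-155 (miR-155 KO), with 3 independent cultures of each genotype and 1 array per culture. They had been grown for 5 weeks in IL-3 at 0.5 ng/ml and SCF at 1 ng/ml. All 6 cultures were sensitised overnight with anti-DNP IgE at 0.2 µg/ml and then triggered for 1 h with 20 ng/ml of the antigen DNP-HSA. Resting cells were not analysed here, so the arrays compare genotypes in activated cells and carry no measure of the response to antigen. The deposited values are log2 intensities, and a difference of 1 is a 2-fold ratio. The number of arrays, 3 per genotype, limits the precision of every value below.

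When antigen cross-links IgE on a mast cell, secretory granules fuse with the plasma membrane and with each other. In the textbook scheme a VAMP on the granule zips together with a syntaxin and a SNAP-25 family protein on the target membrane, which draws the membranes into contact. Munc18 proteins hold and chaperone syntaxins, Munc13-4 primes docked granules, synaptotagmins sense calcium, and α-SNAP with the ATPase NSF takes spent complexes apart. SNAP-23, syntaxin 4, VAMP8, Munc18-2 and Munc13-4 are the forms best known from mast cell degranulation, while SNAP-25 and synaptotagmin 1 serve the nerve terminal.

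The microRNA missing from the KO cells acts through its seed, bases 2 to 8, which pairs with target transcripts. Its 5p arm, from RefSeq at chr16:84714143-84714165 on the plus strand of GRCm38.p6, is shown because its loss is the only labelled difference between the groups, with the seed in capitals.
mmu-miR-155-5p: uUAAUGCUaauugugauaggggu
On the array the log2 level of Mir155 was 2.99 ± 0.15 in WT and 2.86 ± 0.08 in KO cultures (SD, n = 3). Both means are at background, so the deletion and the labels could not be checked from it.

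Sequence upstream of the members was examined for short motifs of factors active in activated or maturing mast cells. RefSeq promoters of GRCm38.p6 matched 39 of the 49 members, with 50 start sites between them, and the 250 bases before each start were searched on both strands. The E-box CACGTG, a core bound by MITF and related factors, was present in 7 of the 50 member windows (14%) and in 6.02% of all 32851 windows of this length. The members with it were Napa, Stx6, Stxbp2, Vamp4, Syt6 and Syt14. The 4 of these that are SNAREs or their direct partners are printed below, with each E-box in capitals, because their values on the arrays went in different ways. The windows lie at chr1:155158453-155158702, chr1:162570265-162570514, chr7:16098330-16098579 and chr8:3630859-3631108, all on the plus strand, and for Vamp4 the window of the upstream of its start sites is shown.
Stx6: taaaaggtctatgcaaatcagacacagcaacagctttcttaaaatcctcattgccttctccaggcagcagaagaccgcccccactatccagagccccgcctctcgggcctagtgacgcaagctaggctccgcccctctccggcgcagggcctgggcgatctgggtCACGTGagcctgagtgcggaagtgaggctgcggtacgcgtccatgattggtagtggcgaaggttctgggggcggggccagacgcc
Vamp4: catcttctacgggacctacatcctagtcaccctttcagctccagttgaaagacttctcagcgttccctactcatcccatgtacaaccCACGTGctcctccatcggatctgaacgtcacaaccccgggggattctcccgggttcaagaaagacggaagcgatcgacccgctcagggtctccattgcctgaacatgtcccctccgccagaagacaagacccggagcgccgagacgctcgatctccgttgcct
Napa: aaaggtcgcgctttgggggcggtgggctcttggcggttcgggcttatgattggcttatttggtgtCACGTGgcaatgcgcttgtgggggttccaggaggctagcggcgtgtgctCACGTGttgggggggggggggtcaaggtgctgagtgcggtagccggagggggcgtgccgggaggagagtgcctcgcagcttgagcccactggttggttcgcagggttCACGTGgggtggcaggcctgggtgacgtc
Stxbp2: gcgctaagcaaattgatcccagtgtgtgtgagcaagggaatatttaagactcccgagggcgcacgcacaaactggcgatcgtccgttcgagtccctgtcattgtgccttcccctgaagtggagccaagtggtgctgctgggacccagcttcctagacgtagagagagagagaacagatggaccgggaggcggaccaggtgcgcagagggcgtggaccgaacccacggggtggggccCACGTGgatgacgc
The E-box stood once before Stx6, Vamp4 and Stxbp2 and 3 times before Napa. On the arrays Stx6 lay higher in KO, Vamp4 lower, and Napa and Stxbp2 overlapped between the genotypes. None of these 4 genes had an adjusted p under 0.05 by limma. They were printed for their differing values, so the 4 cannot show how the E-box relates to the values, which was not tested. The AP-1 motif TGANTCA was found in 2 member windows, those of Syt2 and Syt8, against 6.75% of all windows. The GATA motif AGATAA was also found in 2, before Stx1a and Syt1, against 9.99% of all windows. The cAMP response element TGACGTCA was found before Stxbp3, against 1.55% of all windows. The TGANTCA and TGACGTCA patterns and the E-box read the same on both strands, and no 2 of the matched motifs overlapped in the printed windows. A match is a description of letters, not a measured binding site.

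Mast cell markers were present on all 6 arrays. All 12 listed mast cell genes, Fcer1a, Kit and Cpa3 among them, lay above background, with list means of 10.08 to 10.35 on WT and 10.25 to 10.45 on KO arrays, and 0 of the 12 passed at an adjusted p under 0.05 by limma. At an unadjusted p under 0.05 there were 4 of the 12, against 12.7% of all genes. Groups were separated for 3 of the 12, against 17.2% of all genes and 22.2% of genes above background. All were higher in KO: Hdc, histidine decarboxylase, by 0.84, the protease gene Mcpt4 by 0.44 and Srgn, serglycin of the granule matrix, by 0.21. The other of the 4, Mitf, was lower in KO by 0.29 with overlapping groups. The part of these 4 genes in the values below was not tested. Background is taken as 3.39, the 95th percentile of 1015 olfactory receptor genes, and lies below the array medians of 3.67 to 3.74, so it is a lenient bound. Means over the neuronal markers were 3.61 to 3.67 on WT and 3.58 to 3.60 on KO arrays, with 6 of 12 above background and 0 called. Neutrophil markers were at 3.13 to 3.22 and 3.07 to 3.21, megakaryocyte markers at 5.74 to 5.82 and 5.70 to 5.80, and basophil markers at 5.89 to 7.14 and 6.04 to 6.91, again with 0 called. Macrophage markers were at 4.75 to 4.80 and 4.35 to 4.55, and 1 of the 7, Cx3cr1, was called, lower in KO. Groups were separated for 3 of these 7 and for 2 of the 12 neuronal markers, against 17.2% of all genes. All were lower in KO: Cx3cr1, Marco and Csf1r differed by -0.95, -0.30 and -0.12, and the neuronal Syp and Syn2 by -0.31 and -0.26. Whether the lower macrophage and neuronal means bear on any value below was not tested. In bulk RNA, fewer cells of a type and less RNA per cell cannot be told apart. KO replicate 1 stood apart on the first principal component, at 32.0. The other KO arrays were at 5.36 and 7.31 and the WT arrays at -19.5 to -10.6. Values without KO replicate 1 are given beside the larger differences of the members. They are also given for the 6 genes of the other machinery with the lowest p.

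Most of the fusion machinery was expressed in both genotypes, and the families differed in how many of their genes were above background. All 6 VAMPs, Unc13d, Napa, 13 of 14 syntaxins and 3 of the 4 SNAP-25 family genes were above the background value and above every array's median. Of the Munc18 and Stxbp genes 4 of 6 were, the exceptions being Stxbp4 and Stxbp5l. Of the 17 synaptotagmins 13 exceeded the background value, but the means of only 4 (Syt5, Syt8, Syt9 and Syt11) exceeded the array medians. Signals of different genes come from different probes, so their heights are read here against background and not against each other.

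**Figure D1:**
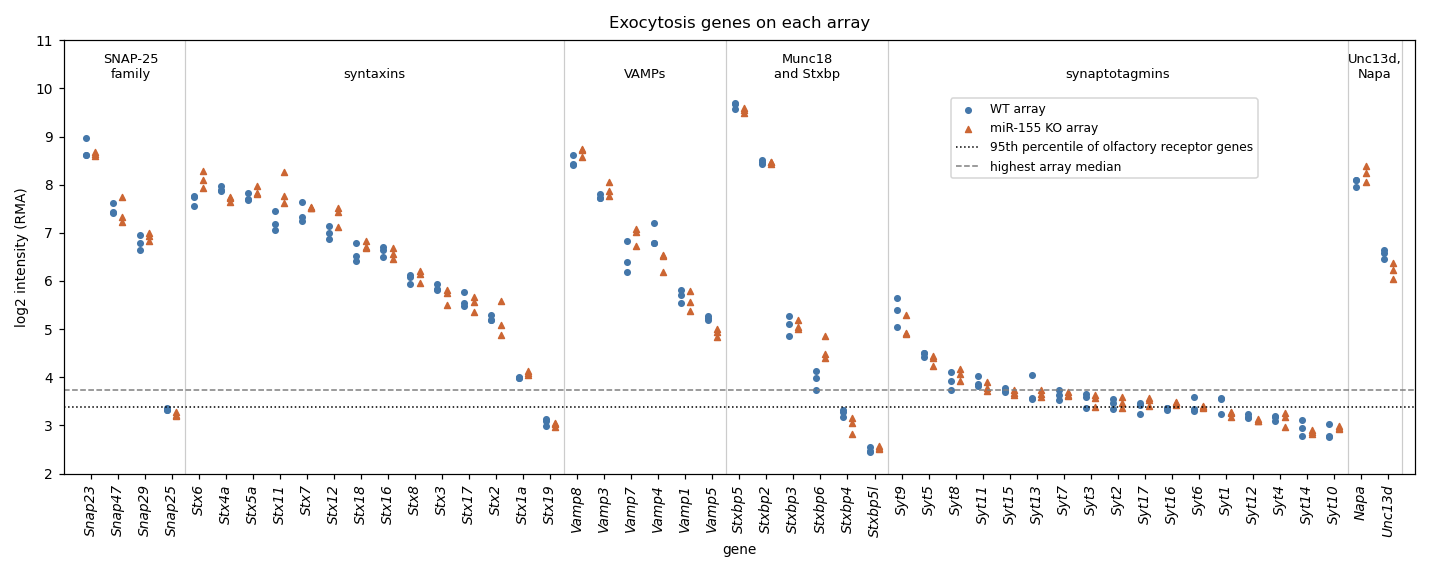
Log2 intensity of each of the 49 genes (horizontal axis, grouped by family) on the 3 WT arrays (circles) and the 3 miR-155 KO arrays (triangles). The dotted line marks the 95th percentile of the olfactory receptor genes, 3.39, and the dashed line the highest array median, 3.74; most synaptotagmins lie near these lines and most other members well above them.

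The comparison asks whether mast cells without miR-155 carry other amounts of exocytosis transcripts after activation through the IgE receptor. No member passed the test in either direction. By limma, 0 of 49 had a Benjamini-Hochberg adjusted p under 0.05 over all genes, where 0.823% of the 19938 genes did, and the lowest value was 0.0943. At an unadjusted p under 0.05 there were 10 of 49 members (20.4%), against 12.7% of all genes. Of these, 5 were higher and 5 lower in KO, against 6.24% and 6.45% of all genes. The 3 KO arrays lay wholly above or below the 3 WT arrays for 13 members (26.5%), against 17.2% of all genes. This was 5 higher and 8 lower, against 8.18% and 9.05% of all genes. Of genes above background in at least 1 genotype, 18.8% had an unadjusted p under 0.05 and 22.2% did not overlap, and the 41 such members, at 9 (22%) and 10 (24.4%), were close to these shares. The median difference, KO minus WT, was -0.02 over the members and -0.01 over all genes, and the median absolute difference was 0.12 and 0.09.

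The precision of the arrays sets a bound on what could have gone unseen. For 48 of the 49 members the 95% interval of the difference lay inside a 2-fold change in either direction, as it did for 19462 of the 19938 genes. Stx11 was the exception, with an upper limit of 1.04. For 42 members the interval lay inside 1.5-fold, and the other 7 were Stx6, Stx11, Stx12, Vamp4, Vamp7, Stxbp6 and Syt9. These intervals are for single genes and are not widened for the number of genes examined. For the members near background they bound the change in signal, which can understate a change in transcript.

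**Figure D2:**
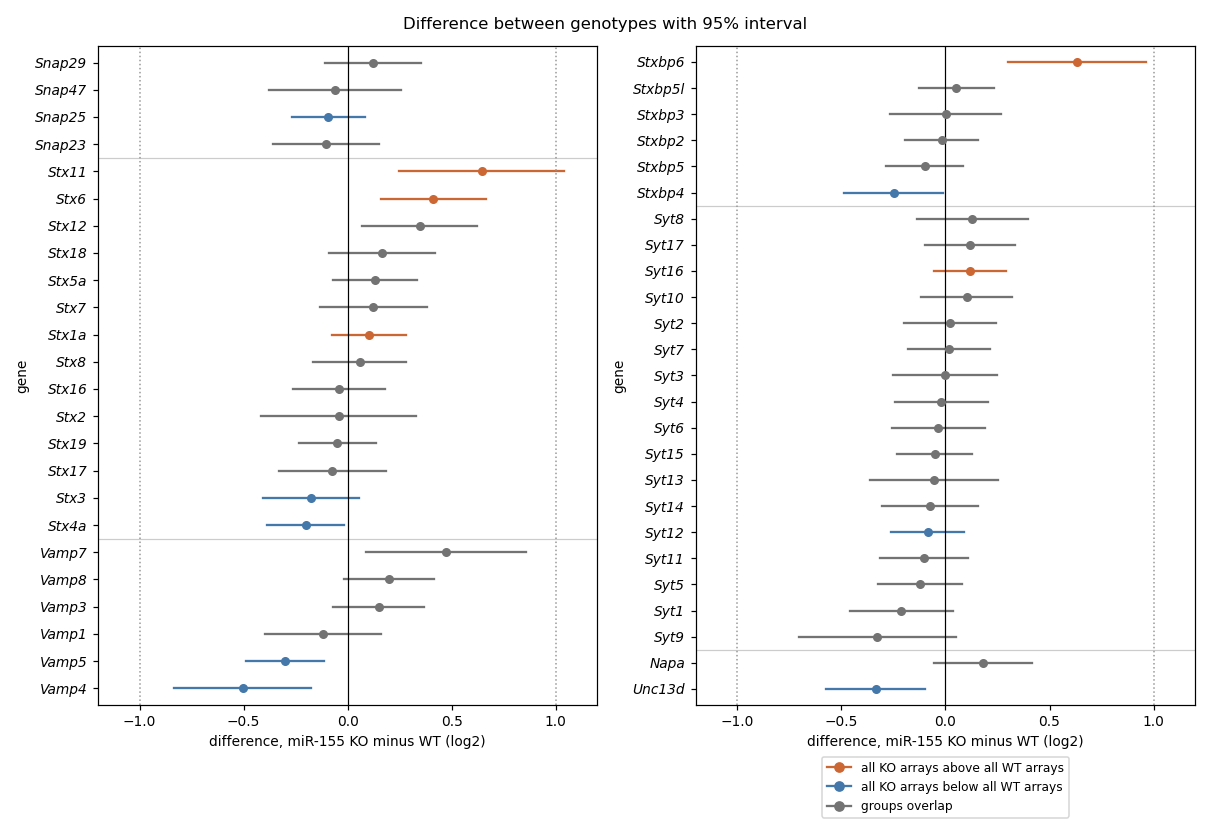
Difference in log2 intensity, miR-155 KO minus WT (horizontal axis), of the 49 genes with the 95% interval from limma, in family order. Dotted lines mark a 2-fold change; orange and blue mark the 13 genes whose groups do not overlap, and only the interval of Stx11 crosses a dotted line.

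The SNAP-25 family, which supplies the SNARE helices anchored at the target membrane, showed no difference beyond the spread between arrays in its expressed members. Snap23, the form known from mast cell granule fusion, read 8.62, 8.62 and 8.98 on WT replicates 1 to 3 and 8.63, 8.59 and 8.69 on KO replicates 1 to 3. Apart from the higher WT replicate 3, the arrays of both genotypes lie close together (difference -0.10, SE 0.11, 95% interval -0.36 to 0.15, adjusted p = 0.802). Snap29, which works on endosomal and autophagic membranes, differed by 0.12 and Snap47 by -0.06, and both overlapped. Snap25, the neuronal form, was below background with means of 3.33 and 3.23. Its groups did not overlap, but they were only 0.03 apart and the difference of -0.09 had an adjusted p of 0.721.

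Of the 14 syntaxins, the SNAREs of the target membrane and of intracellular compartments, 0 passed the test, 8 differences were above 0 and 6 below. Groups were separated for 5 of the 14 (35.7%), against 17.2% of all genes. Of the 13 syntaxins above background these 5 were 38.5%, against 22.2% of all genes above background. Stx11, Stx6 and Stx1a were higher and Stx4a and Stx3 lower in KO. With 14 genes, and with Stx1a and Stx3 separated by only 0.03 and 0.01, these counts do not set the family apart. Stx4a, which encodes syntaxin 4, read 7.86, 7.97 and 7.89 in WT and 7.75, 7.65 and 7.72 in KO. Every KO array was below every WT array, by at least 0.11, and the mean difference was -0.20 (SE 0.08, 95% interval -0.39 to -0.02, adjusted p = 0.336). Stx3, another plasma membrane and granule syntaxin, read 5.93, 5.81 and 5.84 in WT and 5.50, 5.80 and 5.75 in KO. The groups were separated by 0.01 only, and without KO replicate 1 the difference shrank from -0.17 to -0.08. Stx2 differed by -0.04, and its KO arrays, at 4.87, 5.59 and 5.09, had the widest spread of any member in KO (SD 0.37).

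Stx11 had the largest difference of all members. It encodes an atypical syntaxin without a membrane anchor that is needed for the release of cytotoxic granules by lymphocytes. It read 7.06, 7.19 and 7.46 in WT and 8.27, 7.61 and 7.76 in KO. All KO arrays were higher than all WT arrays, and KO replicate 1 was the highest by a wide margin. The means were 7.24 ± 0.20 and 7.88 ± 0.35, a 1.56-fold ratio (difference 0.64, SE 0.17, adjusted p = 0.143). Without KO replicate 1 the difference was 0.45 (adjusted p = 0.251).

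Stx6, a SNARE of the trans-Golgi network and early endosomes, read 7.75, 7.76 and 7.56 in WT and 8.29, 7.93 and 8.09 in KO. The groups were 0.17 apart and the ratio of means was 1.33-fold (difference 0.41, SE 0.11, adjusted p = 0.142, and 0.32 without KO replicate 1). Stx12, a recycling endosome syntaxin, read 6.88, 7.0 and 7.14 in WT and 7.43, 7.11 and 7.51 in KO, a difference of 0.35 (SE 0.12, adjusted p = 0.265, and 0.31 without KO replicate 1). Here KO replicate 2 fell just within the WT range. The remaining members of intracellular membranes lay closer together: Stx5a of the Golgi differed by 0.13, Stx18 of the endoplasmic reticulum by 0.17, and the late endosomal Stx7 and Stx8 by 0.12 and 0.06. Stx16 of the trans-Golgi network differed by -0.04 and the autophagosomal Stx17 by -0.07, and all 6 of these genes overlapped between genotypes. Stx1a, the neuronal form, was little above the array medians (3.99 ± 0.02 and 4.09 ± 0.05) and Stx19 was below background.

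The VAMPs, the SNAREs on the vesicle side, held differences of both signs. Vamp8, the main granule VAMP of mast cells, read 8.41, 8.42 and 8.61 in WT and 8.57, 8.72 and 8.74 in KO. KO replicate 1 fell within the WT range, and the difference was 0.20 (SE 0.09, adjusted p = 0.443). Vamp7, found on late endosomes and secretory lysosomes, read 6.18, 6.39 and 6.84 in WT, the widest WT spread of any member (SD 0.33), and 7.09, 6.72 and 7.02 in KO. Its ratio of means was 1.39-fold (difference 0.47, SE 0.17, adjusted p = 0.273, and 0.40 without KO replicate 1), and WT replicate 3 exceeded KO replicate 2. Vamp3, or cellubrevin, of recycling endosomes, differed by 0.15 and Vamp1 by -0.12, both with overlapping groups.

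Vamp4, which carries traffic between endosomes and the trans-Golgi network, had the largest difference in the other direction. It read 6.78, 6.78 and 7.20 in WT and 6.19, 6.55 and 6.52 in KO. All KO arrays were lower, by at least 0.24, and WT was 1.42-fold above KO (difference -0.50, SE 0.14, adjusted p = 0.167). Leaving out KO replicate 1, its lowest array, gave -0.39. Vamp5, best known from muscle, was the most even of the separated VAMPs, with 5.23, 5.19 and 5.27 in WT and 4.84, 4.95 and 4.99 in KO (difference -0.30, SE 0.08, adjusted p = 0.146, and -0.26 without KO replicate 1).

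Vamp5 and Vamp8 are neighbours in the genome, with 0 other protein-coding genes between them in the RefSeq gene table, and their differences of -0.30 and 0.20 had opposite signs. The 250 bases before their start sites, at chr6:72380469-72380718 and chr6:72390668-72390917 on the minus strand of chromosome 6, are printed as a description of the 2 upstream regions. All letters are in lower case because 0 of the 4 motifs searched occur in them.
Vamp5: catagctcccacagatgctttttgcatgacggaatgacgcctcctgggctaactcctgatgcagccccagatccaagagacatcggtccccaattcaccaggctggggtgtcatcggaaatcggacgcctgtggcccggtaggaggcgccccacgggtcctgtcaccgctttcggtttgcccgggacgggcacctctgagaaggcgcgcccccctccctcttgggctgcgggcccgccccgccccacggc
Vamp8: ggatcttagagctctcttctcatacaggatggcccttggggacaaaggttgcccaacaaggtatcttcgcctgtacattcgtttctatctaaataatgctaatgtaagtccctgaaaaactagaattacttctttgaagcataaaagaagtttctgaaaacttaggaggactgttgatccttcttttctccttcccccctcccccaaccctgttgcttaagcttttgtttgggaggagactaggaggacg
The Vamp5 window is 66.0% G and C and the Vamp8 window 43.6%. Neither gene passed the test, the groups of Vamp8 overlapped, and a link between these windows and the values was not tested.

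Among the Munc18 and Stxbp genes, those that pair with the syntaxins of degranulation had closely similar values in both genotypes. Stxbp2, which encodes Munc18-2, read 8.47, 8.51 and 8.44 in WT and 8.43, 8.47 and 8.47 in KO. All 6 arrays lay within a narrow band, and the 95% interval of the difference ran from -0.19 to 0.16. Stxbp3, whose product partners syntaxin 4, had equal means of 5.07 ± 0.21 and 5.07 ± 0.10. Stxbp5, or tomosyn, a SNARE-binding inhibitor of fusion, had means of 9.64 ± 0.06 and 9.54 ± 0.05 (difference -0.10, adjusted p = 0.713).

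Stxbp6, or amisyn, which binds SNAREs and restrains fusion, had the lowest adjusted p of all members at 0.0943. It read 4.13, 3.74 and 3.98 in WT and 4.87, 4.40 and 4.48 in KO. Every KO array was higher, by at least 0.27, and the ratio of means was 1.55-fold (difference 0.63, SE 0.15, 95% interval 0.30 to 0.96). Without KO replicate 1, its highest array, the difference was 0.49. The WT mean of 3.95 is little above the array medians, so the ratio may be inexact. Stxbp4, a syntaxin 4 binding protein also called Synip, was below background on both of its probe sets, which differed by -0.25 and -0.07. Its second probe set overlapped between genotypes, whereas on the first the KO arrays (3.04, 3.15 and 2.82) lay just below the WT arrays (3.17, 3.31 and 3.28).

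**Figure D3:**
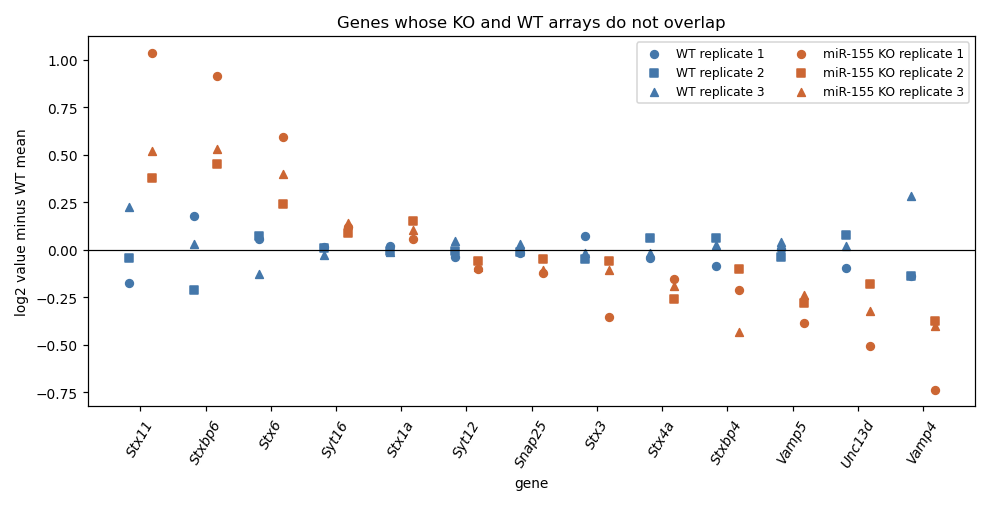
Log2 value on each array minus the gene's WT mean (vertical axis) for the 13 genes whose KO arrays all lie above or all below the WT arrays, with symbols for replicate 1 (circle), 2 (square) and 3 (triangle) in WT (blue) and miR-155 KO (orange). KO replicate 1 is the farthest KO array from the WT mean in 9 of the 13 genes, and for Snap25, Stx1a, Stx3, Stxbp4, Syt12 and Syt16 the groups are separated by no more than 0.07.

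Of the 13 separated genes 8 also had an unadjusted p under 0.05, and the other 5 were Snap25, Stx1a, Stx3, Syt12 and Syt16. KO replicate 1 was the farthest KO array from the WT mean in 9 of the 13 (69.2%), against 53.9% of all 3436 genes with separated groups. Within WT, replicate 3 was the highest array for 26 of the 49 members, where it was the highest for 36.5% of all genes. Snap23, Vamp4, Vamp7, Vamp8, Stx7 and Stx11 were among these 26.

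The synaptotagmins gave little signal and little difference. Syt9, a form studied in mast cell lines, was well above background. It read 5.05, 5.39 and 5.66 in WT and 4.92, 4.90 and 5.29 in KO, so that the groups overlapped (difference -0.33, SE 0.17, adjusted p = 0.475). Without WT replicate 3, its highest array, the difference was -0.18, and without KO replicate 1 it was -0.27. Syt5 differed by -0.12 (4.48 ± 0.05 and 4.35 ± 0.12), Syt8 by 0.13 and Syt11, which does not bind calcium, by -0.10. Syt2 and Syt3, also studied in mast cell lines, had means of 3.45 and 3.47 and of 3.53 and 3.53, between the background value and the array medians. Syt7, a calcium sensor of lysosome fusion, differed by 0.02. The neuronal Syt1 read 3.57, 3.54 and 3.23 in WT and 3.25, 3.18 and 3.29 in KO, with a difference of -0.21 at an adjusted p of 0.482. Over the 17 genes, differences ran from -0.33 to 0.13, and 0 had an unadjusted p under 0.05 by limma, against 12.7% of all genes. Syt12 and Syt16 were the only synaptotagmins with separated groups (11.8%, against 17.2% of all genes), by 0.02 and 0.07. With 17 genes, most of them near background, these counts do not set the family apart.

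Of the priming and recycling factors, Unc13d lay lower in KO and Napa did not separate. Unc13d, whose product Munc13-4 primes granules for fusion, read 6.46, 6.63 and 6.58 in WT and 6.05, 6.38 and 6.23 in KO. All KO arrays were lower, by at least 0.08, and WT was 1.26-fold above KO (difference -0.34, SE 0.11, 95% interval -0.58 to -0.10, adjusted p = 0.202). Without KO replicate 1 the difference was -0.25 (adjusted p = 0.466). Napa read 8.09, 8.09 and 7.96 in WT and 8.38, 8.06 and 8.24 in KO, a difference of 0.18 (SE 0.10, adjusted p = 0.548), which was 0.10 without KO replicate 1.

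**Figure D4:**
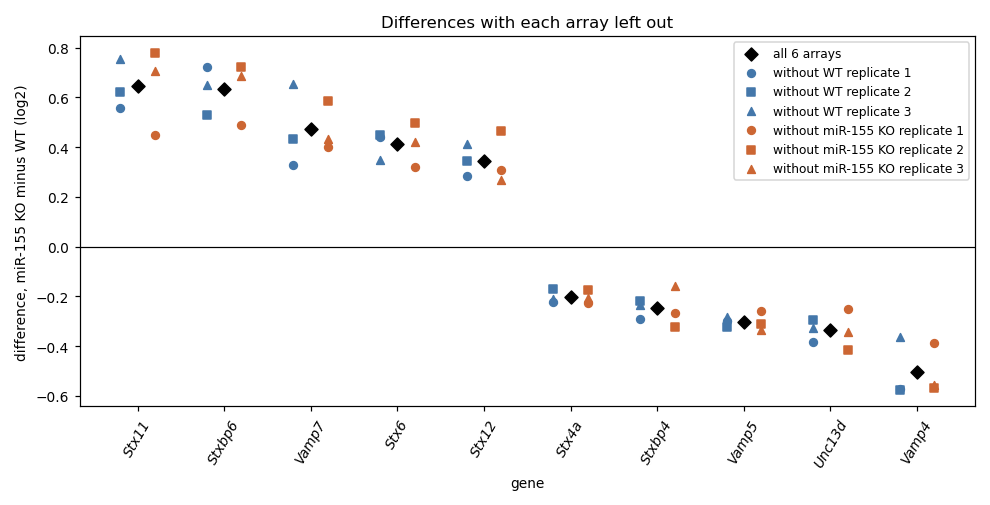
Difference in log2 intensity, miR-155 KO minus WT (vertical axis), for the 10 members with an unadjusted p under 0.05, with all 6 arrays (diamonds) and with each WT (blue) or KO (orange) array left out. Leaving out KO replicate 1 gives the smallest difference for Stx11, Stxbp6, Stx6, Vamp5 and Unc13d.

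The differences of the members at an unadjusted p under 0.05 varied with the array left out, and their signs say nothing further, since 8 of these 10 genes had separated groups. Stx11 ranged from 0.45 to 0.78, Stxbp6 from 0.49 to 0.72, Stx6 from 0.32 to 0.50 and Vamp4 from -0.57 to -0.36. The number of members at this level was 7 to 12 over the 6 fits. Without KO replicate 1 it was 8 of 49, where 9.88% of all genes reached it.

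Other genes of the same machinery were examined from a list of 75, of which 74 were measured and 62 were above background in at least 1 genotype. By limma 0 of the 74 rose and 0 fell, and 18 (24.3%), 9 in each direction, had an unadjusted p under 0.05, against 12.7% of all genes. Of the 62 above background these 18 were 29.0%, against 18.8% of all genes above background. The median difference over the 74 was 0.02. Of the 6 genes with the lowest p, 4 were lower in KO. Rab27a, a GTPase that docks granules, read 8.22, 8.14 and 8.21 in WT and 7.47, 7.42 and 7.81 in KO, which left the groups well apart (difference -0.62, SE 0.11, adjusted p = 0.0523). Without KO replicate 1 its difference was -0.58 (adjusted p = 0.122). Lyst, which governs granule size, differed by -0.58 (SE 0.12, adjusted p = 0.0735), and by -0.50 without KO replicate 1 (adjusted p = 0.173). Exoc3, a subunit of the exocyst tether, differed by -0.38 (adjusted p = 0.10), and Vps39, a subunit of the lysosomal HOPS tether, by -0.34 (adjusted p = 0.104). Leaving out KO replicate 1 gave -0.37 for Exoc3 and -0.31 for Vps39.

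The other 2 of these 6 genes encode SNAREs of the Golgi and were higher in KO. Bet1l read 8.01, 8.05 and 7.90 in WT and 8.43, 8.39 and 8.30 in KO (difference 0.39, SE 0.08, adjusted p = 0.0860, and 0.36 without KO replicate 1). Gosr2 read 7.53, 7.60 and 7.68 in WT and 8.17, 7.87 and 8.07 in KO (difference 0.43, SE 0.10, adjusted p = 0.10, and 0.36 without KO replicate 1). For both, the KO arrays were all above the WT arrays. Genes of like function did not all go one way, as values looked up afterwards show. Among SNAREs of the endoplasmic reticulum and Golgi, Bet1, Ykt6 and Sec22b differed by 0.34, 0.29 and 0.22 with separated groups. Gosr1, Use1, Bnip1 and Vti1a differed by 0.18, 0.03, -0.02 and -0.28 with overlapping groups. The Sec22 homologues Sec22c and Sec22a, not counted among the SNAREs here, differed by -0.42 with separated groups and by 0.11 with overlap. Among granule transport genes, Rab27b differed by -0.63, the largest difference of the list, Rab3d by -0.45 and the myosin gene Myo5a by 0.43. All of these had separated groups. Sytl2, Sytl1 and Mlph differed by -0.41, -0.34 and -0.14, and Sytl3 and Rab3a by 0.20 and 0.03, all with overlapping groups. Nsf, the ATPase that works with α-SNAP, differed by -0.11 and overlapped.

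**Figure D5:**
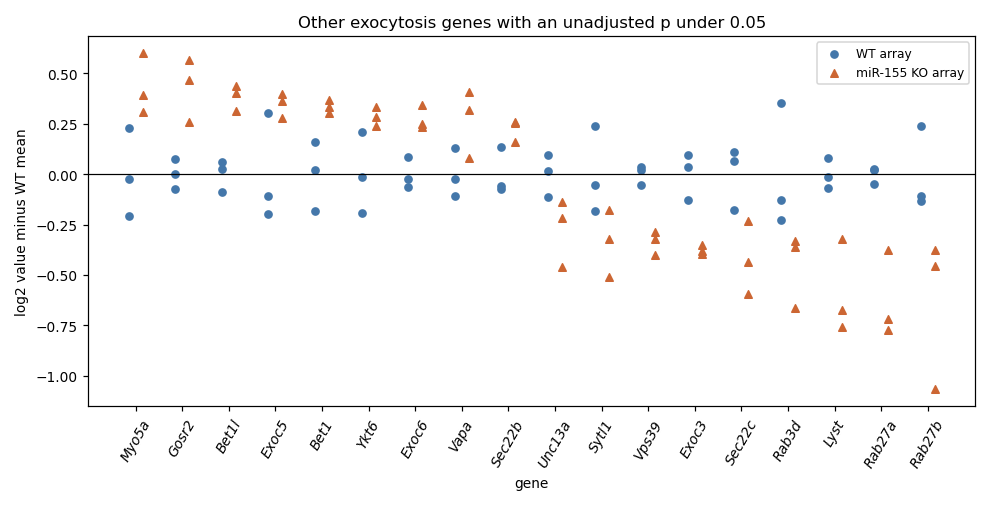
Log2 value on each array minus the gene's WT mean (vertical axis) for the 18 other exocytosis genes with an unadjusted p under 0.05, on WT (circles) and miR-155 KO arrays (triangles). The 9 genes on the left were higher and the 9 on the right lower in KO, and none reached an adjusted p under 0.05.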

How the data were processed

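Total RNA of 6 cultures was measured on Affymetrix Mouse Gene 1.0 ST arrays. The authors deposited log2 intensities, for which the submitters' processing notes name RMA (version not given in the sources used here), and no further normalization was applied. Of 35557 probe sets, 21789 carried 1 gene symbol, and the probe set with the highest mean represented a gene, leaving 19938. The test was limma's (version 3.58.1, under R 4.3.3; lmFit, eBayes), genotype the only term, with two-sided tests and Benjamini-Hochberg adjustment over all 19938. A gene rose or fell only at an adjusted p under 0.05. SE is the moderated standard error. Fits were tested on simulated data. Members and lists were chosen with earlier results of these data known. Genes named were known mast cell exocytosis and neuronal members, members with separated groups or more than 1 probe set, the 3 lowest p of each family, and the 6 lowest p of the other machinery. Others were named after their values were seen. The alternatives are in the closing section. Protein sequences and 3' ends of transcripts were not used here. Plots were drawn with matplotlib 3.10.9.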

Additional observations from a re-analysis of the deposited data

How the results depend on the processing

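The count of 0 members with an adjusted p under 0.05 held in 12 of the 13 alternatives tried. The exception was the replicate block, where 1 member passed, Stxbp6 (adjusted p = 0.0372, range over all alternatives 0.0372 to 0.250). The labels do not say whether equal replicate numbers pair the cultures. Deviations of same-numbered arrays correlated at -0.04, -0.06 and 0.26, and those of differently numbered arrays at -0.29 to 0.26. With 3 arrays per genotype these correlations cannot decide whether the cultures were paired. The block called 199 genes in all. Among the other exocytosis genes 1 was called after repeated quantile normalization, 1 with the dim filter and 1 with trend and robust priors, each time Rab27a (adjusted p = 0.0324, 0.0450 and 0.0307), and 0 to 1 when 1 array was left out (Lyst without KO replicate 2, adjusted p = 0.0270, and Rab27a without KO replicate 3, 0.0320). Over all genes 4 were called when every probe set was tested and 15 to 167 when 1 array was left out. Members at an unadjusted p under 0.05 numbered 7 to 12 of 49, or 8 of 40 with the dim filter, a count chosen after seeing the data. The share of all genes in the fit was 9.88% to 16.9%. With 3 arrays per genotype the intervals in the report are the limit on precision, and signals near background understate changes.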
